A study of Mus musculus with 11 samples.

Results

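The genes described here write, erase and read cytosine methylation in DNA. They are *Dnmt1*, *Dnmt3a* and *Dnmt3b* (writers), *Tet1*, *Tet2* and *Tet3* (erasers), and *Uhrf1*, *Mbd2* and *Mbd3* (readers). They were chosen by name, and all 9 had a row among the 14272 genes with values in the 11 libraries. No DNA methylation was measured in the data used here, so the values are RNA levels of the machinery and not of the mark.

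Total RNA of 4 murine lines of a melanoma progression model was sequenced. Melan-a is a spontaneously immortalized, nonmalignant melanocyte line, and 4C (pre-malignant), 4C11- (non-metastatic melanoma) and 4C11+ (metastatic melanoma) were derived from it by repeated cycles of blocked adhesion. By cell shape, 2 of the lines are epithelial (melan-a, 4C11+) and 2 are mesenchymal-like (4C, 4C11-). All lines were grown in RPMI with fetal bovine serum, with PMA (a phorbol ester, 200 nM) in the medium of melan-a and not in that of the derived lines, so the effects of PMA and of the line cannot be told apart in any comparison with melan-a. There were 2 melan-a libraries (replicates 2 and 3) and 3 of each other line, from separate cultures per the labels. Each line is a single line, so the spread between its libraries is that between cultures and not between independently derived lines.

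Methyl groups on cytosine are placed on new sites by DNMT3A and DNMT3B and copied to the daughter strand after replication by DNMT1, which UHRF1 brings to hemimethylated DNA. TET enzymes oxidize methylcytosine, which opens the way to its removal. MBD2 binds methylated CpG, MBD3 binds it weakly or not at all, and both are alternative subunits of the NuRD remodelling and deacetylase complex.

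The deposited values are log2 values on a CPM scale, called log2 values from here on. The 11 libraries have 1 highest value in common and medians of 4.57 or 4.58, a pattern that quantile normalization produces, and whether it was applied is not given in the sources used here. CPM and summed CPM are therefore on this common scale. The total read counts were not used here. Low values fall on steps with 8 or more genes each up to 120 reads, and the place of a step in order was taken as the number of reads, which a rescaling that keeps the order does not change. Depth also depends on the scale and is rough. From the steps at 10, 40 and 120 reads it was 5.15 to 7.74 M reads in the 4C libraries, 3.77 to 6.08 in those of 4C11+, 4.13 to 7.86 in those of 4C11-, and 3.18 to 4.11 and 5.65 to 6.44 M reads in melan-a replicates 2 and 3. The lowest value of each library, read as 0 reads with the offset of voom, gave 2.71 to 5.42. Lines were compared with limma on all genes, and a difference was called when its Benjamini-Hochberg adjusted p over all genes was under 0.05.

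Some libraries stood apart from the others of their line. The 2 melan-a libraries differed by more than 4 log2 units in 189 genes, and 4C11- replicate 1 differed so from replicate 3 in 141 genes, against 3 to 49 genes in the other pairs of the same line. 4C11- replicate 1 was low in AT-rich genes, with a median log2 difference from the other 4C11- libraries of -1.33 in the quintile of genes with the lowest GC content and of 0.58 in the quintile with the highest. In melan-a, replicate 2 lay -0.61 from replicate 3 in the lowest quintile and 0.32 in the highest. In contrast, 4C11+ replicates 1 and 2 lay close together. Over 1588 genes of low count, their reads differed with a mean chi-square of 1.63 for each gene, where sampling alone gives 1 and the other pairs gave 2.53 to 7.09. This exceeds counting noise, but separate preparations of the same RNA would exceed it too, so it does not show that they came from separate cultures. They had 814 identical values, against 65 to 275 in the other pairs. Both libraries have a lowest value of -2.44, held by 682 and 711 genes, and genes at this value in both count as identical. The median absolute log2 difference of these 2 libraries was 0.176, against 0.293 to 0.733. They were kept as 2 libraries, as labelled, and the results were also computed with their mean in place of both. Results that rest on these libraries are given with and without them.

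**Figure D1:**
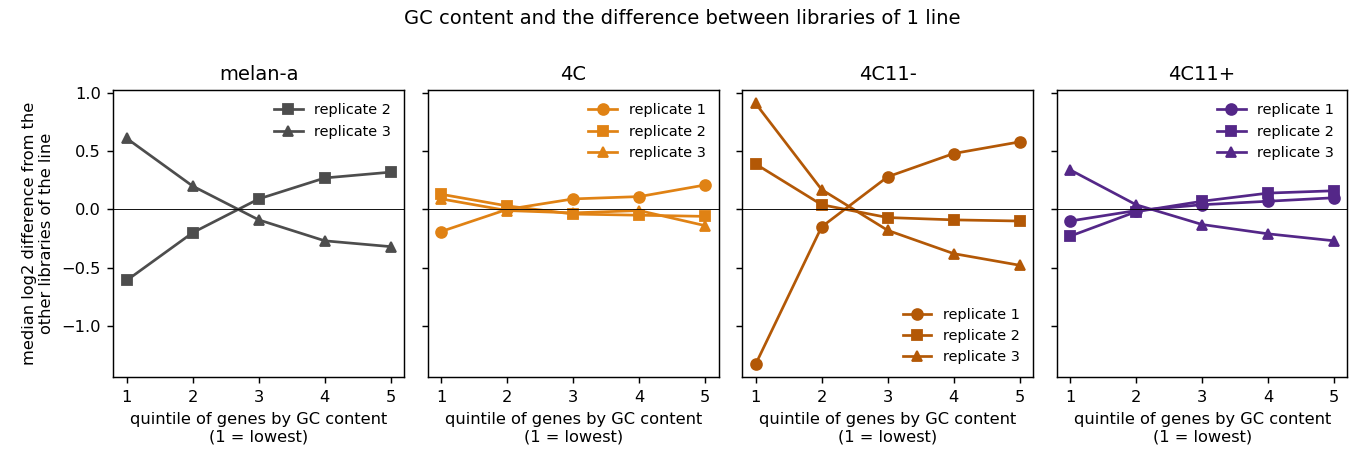
Median log2 difference of each library from the other libraries of its line, in quintiles of the genes by GC content (1 is the lowest, and genes with a mean log2 value over 2 were used), with 1 panel for each line and 1 symbol for each replicate. 4C11- replicate 1 goes from -1.33 in the lowest quintile to 0.58 in the highest, and 4C11- replicate 3 goes the other way, from 0.91 to -0.48.

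Markers of the melanocyte lineage were checked in each library. Of the 10 melanocyte markers, 9 had a row, and their summed CPM was 10600 to 12900 in 4C11+ and 1870 and 9060 in the melan-a libraries, but 3.70 to 7.56 in 4C and 3.20 to 11.7 in 4C11-. In melan-a the most abundant was *Sox10* in replicate 2 (9.05) and *Tyrp1* in replicate 3 (12.63), while *Tyr* was at -0.25 and 1.29, against 8.39 to 8.7 in 4C11+. *Pmel* was also lower in melan-a (2.41 and 2.95) than in 4C11+ (11.72 to 12.2). *Kit* went the other way, with 6.92 and 6.18 in melan-a against 2.17 to 4.22 in 4C11+. In 4C and 4C11-, 1 to 3 of the 9 markers were at the lowest value of the library, and *Sox10* reached at most 0.48. Of the 8 fibroblast markers, 4 had a row, and their summed CPM reached 2310 to 2630 in 4C and 1970 to 2230 in 4C11-, against 25.8 to 45.0 in 4C11+ and 206 and 19.8 in melan-a replicates 2 and 3, with *Col1a1* the most abundant in 4C and 4C11-. Of the other marker lists, *Krt10* was the only keratinocyte marker of 6 with a row (-2.58 to 1.48), *Lyz2* the only leukocyte marker of 6 (1.46 to 5.21) and *Cdh5* the only endothelial marker of 4, at 6.54 to 7.43 in 4C11-, 4.01 in 4C replicate 1 and at most 0.44 in the other libraries. The part of these differences in lineage markers in the results was not tested. In bulk RNA, fewer cells of a type and less RNA in each cell cannot be told apart.

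Across the 4 lines, 3 of the 9 genes passed the F test of limma for any difference, *Dnmt3a* (adjusted p = 0.00149), *Mbd3* (adjusted p = 0.0035) and *Mbd2* (adjusted p = 0.00788). These are 33.3% of the 9 genes, beside 36.1% of all genes, a share near the background. All 3 calls were kept in each of the 11 fits without 1 library. *Dnmt3a* and *Mbd3* were high in 4C11+, and *Mbd2* was low in both mesenchymal-like lines.

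**Figure D2:**
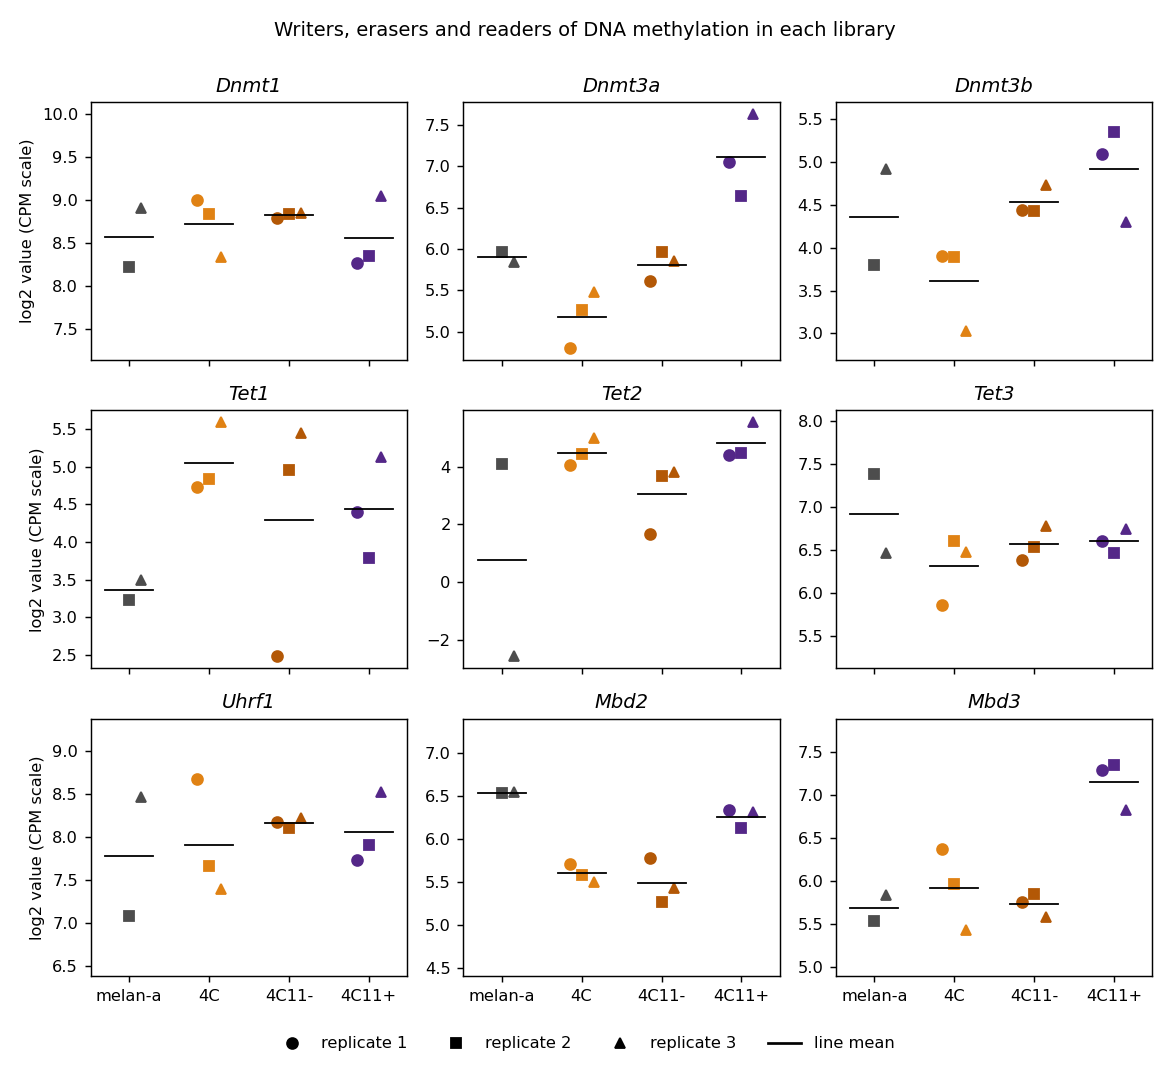
Log2 value (vertical axis, CPM scale) of each gene in the libraries of the 4 lines (horizontal axis), with 1 symbol for each replicate and a bar at the mean of the line. *Dnmt3a* and *Mbd3* have all 3 libraries of 4C11+ above every other library, *Mbd2* has all 6 libraries of 4C and 4C11- below the other 5, and *Tet2* is at -2.58 in melan-a replicate 3.

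Levels were set between genes only per kilobase of exon (log2 value minus log2 of the exonic length in kilobases, with the length over all annotated isoforms). Over the 11 libraries the mean log2 value per kilobase was 5.90 for *Uhrf1*, 5.79 for *Dnmt1*, 5.17 for *Mbd3*, 4.23 for *Mbd2*, 2.51 for *Tet3*, 2.00 for *Dnmt3b*, 1.95 for *Dnmt3a*, 0.42 for *Tet1* and -0.57 for *Tet2*. The maintenance genes *Uhrf1* and *Dnmt1* were the highest in this mean and in the means of melan-a, 4C and 4C11-, while in 4C11+ *Mbd3* (6.17) was above *Uhrf1* (5.96) and *Dnmt1* (5.67). The 5 genes from *Tet3* downwards had all their libraries below those of *Mbd2*, the lowest of which was at 3.58 against a highest of 3.57 for *Dnmt3a*. Neighbours in this order overlapped in their libraries, except *Mbd2* and *Tet3*, and *Uhrf1* and *Dnmt1* as well as *Dnmt3b* and *Dnmt3a* differed by less than their spread within lines (SD of 0.57 and 0.35, and of 0.51 and 0.34).

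*Dnmt1*, the maintenance methyltransferase (ENSMUSG00000004099, chromosome 9, 20907209 to 20959888, GRCm38, minus strand), had log2 values of 8.22 and 8.91 in melan-a, 9.0, 8.84 and 8.33 in 4C, 8.79, 8.84 and 8.85 in 4C11-, and 8.26, 8.35 and 9.05 in 4C11+. All lines overlapped, and the whole range was 0.82. None of its differences was called, the largest between lines being that of 4C11+ and 4C11- (log2 difference of -0.28, 95% confidence interval -0.86 to 0.31, limma adjusted p = 0.467). With library weights from limma's arrayWeights, *Dnmt1* was called lower in 4C11+ than in 4C (-0.49, adjusted p = 0.00377) and than the mean of the other lines (-0.42, adjusted p = 0.0306), against -0.17 and -0.15 without weights. That estimate stopped before convergence. With weights estimated gene by gene, *Dnmt1* was called lower in 4C11+ than in 4C11- (-0.51, adjusted p = 0.00892), than in 4C (-0.42, adjusted p = 0.0288) and than the mean of the other lines (-0.39, adjusted p = 0.0396). The F test was called with both weightings (adjusted p = 0.0193 and 0.0311). The gene-by-gene weights were 4.71 and 2.24 for 4C11+ replicates 1 and 2, and 0.451 for replicate 3, which had the highest *Dnmt1* value (9.05). With the mean of 4C11+ replicates 1 and 2 in place of both, the unweighted difference of 4C11+ from 4C11- was -0.15 (limma adjusted p = 0.771).

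*Dnmt3a*, a de novo methyltransferase (ENSMUSG00000020661, chromosome 12, 3806007 to 3914443, plus strand), had log2 values of 5.97 and 5.84 in melan-a, 4.80, 5.26 and 5.48 in 4C, 5.61, 5.96 and 5.85 in 4C11-, and 7.05, 6.64 and 7.63 in 4C11+. The 3 libraries of 4C11+ were above the other 8, and those of 4C were below all the others. The line means were 7.11 ± 0.50 (SD, n = 3) in 4C11+, 5.90 ± 0.09 (n = 2) in melan-a, 5.81 ± 0.18 (n = 3) in 4C11- and 5.18 ± 0.34 (n = 3) in 4C. Against the mean of the other lines, *Dnmt3a* was 2.78-fold higher in 4C11+ (log2 difference of 1.48 ± 0.23 SE, limma adjusted p = 0.000567), and it was higher in 4C11+ than in 4C11- by 1.30 ± 0.28 (adjusted p = 0.00449), than in 4C by 1.93 ± 0.28 (adjusted p = 0.000297) and than in melan-a by 1.20 ± 0.31 (adjusted p = 0.0234). The first 3 of these calls were kept without any one library. That against melan-a was lost without melan-a replicate 2 (adjusted p = 0.0831), melan-a replicate 3 (0.0756), 4C11+ replicate 1 (0.0698) or 4C11+ replicate 3 (0.0536), with the libraries of these lines alone (0.0616) and with gene-by-gene weights (0.0574). Melan-a and 4C11-, neighbours in this order, did not differ beyond their spread (-0.10, adjusted p = 0.892), and 4C11- and 4C did not overlap but were not called (0.63, adjusted p = 0.355), except with gene-by-gene weights (0.68, adjusted p = 0.0226). Its exons share 133 bases with the opposite-strand gene *Dnmt3aos*, 0.799% of the exonic length, which had no row.

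*Dnmt3b*, the other de novo methyltransferase (ENSMUSG00000027478, chromosome 2, 153649450 to 153687730, plus strand), had log2 values of 3.80 and 4.92 in melan-a, 3.90, 3.89 and 3.03 in 4C, 4.44, 4.43 and 4.73 in 4C11-, and 5.09, 5.35 and 4.30 in 4C11+. The melan-a libraries lay on either side of the median of 4.43, and 4C was below both tumor lines. Its only call was 4C11+ over 4C, by 1.30 ± 0.39 SE (2.47-fold, limma adjusted p = 0.0243, 3 of 3 libraries higher). This call was lost without 4C replicate 3 (adjusted p = 0.104), 4C11+ replicate 1 (0.0876) or 4C11+ replicate 2 (0.108), and with the mean of 4C11+ replicates 1 and 2 (0.0953). In 4C11+ against the mean of the other lines, its log2 difference was 0.75 and not called (adjusted p = 0.0971), with 0.53 to 1.05 without single libraries. It was called without melan-a replicate 3 (0.93, adjusted p = 0.0347) or 4C11+ replicate 3 (1.05, adjusted p = 0.0412), and with arrayWeights (0.82, adjusted p = 0.00738) or gene-by-gene weights (0.93, adjusted p = 0.00316). The F test was called with both weightings and without either melan-a library or 4C11+ replicate 3, and gene-by-gene weights also called 4C11+ over 4C11- (0.64, adjusted p = 0.0221). At the lowest value, 3.03 in 4C replicate 3, the gene rested on approximately 46 reads.

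Of the erasers, *Tet1* and *Tet2* had the largest SD within lines of the 9 genes (0.96 and 1.95), and *Tet3* (0.35) did not stand apart. *Tet1* (ENSMUSG00000047146, chromosome 10, 62804570 to 62908996, minus strand) had log2 values of 3.23 and 3.50 in melan-a, 4.73, 4.84 and 5.59 in 4C, 2.48, 4.95 and 5.45 in 4C11-, and 4.40, 3.79 and 5.13 in 4C11+. The low value of 4C11- belonged to replicate 1, the library that was low in AT-rich genes, and rested on 27 reads. The longest transcript of *Tet1* has a GC content of 43.7%, within the lowest quintile of the genes. All libraries of 4C and of 4C11+ were above both of melan-a, with a log2 difference of 1.69 (95% confidence interval 0.10 to 3.27) for 4C and of 1.07 (-0.51 to 2.66) for 4C11+, and neither was called (limma adjusted p = 0.153 and 0.344). Without 4C11- replicate 1, the difference of 4C from melan-a was the same 1.69 and was called (adjusted p = 0.0144), as were 4C11- over melan-a by 1.84 (adjusted p = 0.0178), against 0.93 (adjusted p = 0.472) with it, and the mesenchymal-like over the epithelial lines by 1.22 (adjusted p = 0.00727), against 0.77 (adjusted p = 0.268) with it. Without other single libraries this last difference was as low as 0.48 (without 4C11- replicate 3) and was not called. When the trend of each library with GC content and length was removed, a setting chosen after seeing the data, *Tet1* was called higher than in melan-a in 4C by 1.60 (adjusted p = 0.022) and in 4C11+ by 1.40 (adjusted p = 0.0388). Fitted on the libraries of 4C and melan-a alone, that of 4C was called as well (adjusted p = 0.0317). With the replicate number as a block it was called too (2.05, adjusted p = 0.0418). The difference of 4C11+ was not called without 4C11- replicate 1 (adjusted p = 0.0859). With gene-by-gene weights, the mesenchymal-like lines were called higher (1.14, adjusted p = 0.0236). The F test of *Tet1* was called without 4C11- replicate 1 (adjusted p = 0.0184) and without the trends of GC content and length (adjusted p = 0.0403), and under no other setting.

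*Tet2* (ENSMUSG00000040943, chromosome 3, 133463679 to 133545139, minus strand) had log2 values of 4.10 and -2.58 in melan-a, 4.04, 4.44 and 4.98 in 4C, 1.65, 3.69 and 3.82 in 4C11-, and 4.40, 4.46 and 5.54 in 4C11+. The value of -2.58 in melan-a replicate 3 is the lowest of that library and was taken as 0 reads (a count of 0 allows up to 3 reads), while the 4.10 of replicate 2 rested on 57 reads. Of the 559 genes at the lowest value of replicate 3, 16, *Tet2* among them, were at least as high as 4.10 in replicate 2, and none of the 399 genes at the lowest value of replicate 2 was that high in replicate 3. The nearest genes with values on either side of *Tet2* on chromosome 3 were *Ppa2*, at 4.88 and 5.23 in melan-a replicates 2 and 3, and *Cenpe*, at 5.40 and 7.16.

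A mean of *Tet2* over melan-a therefore describes neither library, and no difference from melan-a was called with both in the unweighted fit (4C11+ against melan-a gave 4.04 with a 95% confidence interval of 0.94 to 7.13, limma adjusted p = 0.0757), while without the trends of GC content and length 4C11+ was called (4.36, adjusted p = 0.0372). With arrayWeights, 4C (3.71, adjusted p = 0.0466) and 4C11+ (3.70, adjusted p = 0.039) were called above melan-a, and with gene-by-gene weights 4C11+ was (3.73, adjusted p = 0.0413). Against the mean of the other lines, *Tet2* in 4C11+ was called with either weighting (1.60 and 1.52, adjusted p = 0.03 and 0.0261). With melan-a replicate 3 left out, 4C11+ differed from melan-a by 0.69 and 4C by 0.38, and neither was called. With replicate 2 left out, they differed by 7.38 (adjusted p = 0.000241) and 7.07 (adjusted p = 0.000135), where replicate 3 is assumed to vary like the other lines, and these are fitted values against 0 reads and not bounds. For 4C11- against melan-a, the log2 difference of 2.29 (adjusted p = 0.344) became 5.64 without replicate 2 (adjusted p = 0.000755) and turned to -1.05, not called, without replicate 3. For the mesenchymal-like against the epithelial lines, 0.99 (adjusted p = 0.478) became 2.66 without replicate 2 (adjusted p = 0.00213) and turned to -0.68, not called, without replicate 3. For 4C11+ against the mean of the other lines, 2.03 (adjusted p = 0.159) became 3.15 (adjusted p = 0.000862) and 0.92, the latter not called. The F test was called without replicate 2 and with both weightings, and not otherwise. Among the derived lines, the 3 libraries of 4C11+ were above the 3 of 4C11-, by 1.75 (95% confidence interval -1.02 to 4.51, adjusted p = 0.323), and this was called without melan-a replicate 2 (adjusted p = 0.037) or replicate 3 (adjusted p = 0.0345), since the spread between these 2 enters the error of every comparison. 4C11- replicate 1 was again the lowest of the derived lines, with 16 reads. The exons of *Tet2* share 43 bases with the opposite-strand gene *Gm42567*, which had no row.

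*Tet3* (ENSMUSG00000034832, chromosome 6, 83362373 to 83459084, minus strand), the most abundant of the 3 TET genes per kilobase, had log2 values of 7.38 and 6.46 in melan-a, 5.86, 6.60 and 6.47 in 4C, 6.38, 6.53 and 6.77 in 4C11-, and 6.60, 6.46 and 6.74 in 4C11+. The lines overlapped, and the extremes were melan-a replicate 2 and 4C replicate 1. No difference of *Tet3* was called. Without the trends of GC content and length, it was higher in 4C11+ than in 4C by 0.61 (limma adjusted p = 0.0309), against 0.29 (adjusted p = 0.453) with them. Per kilobase, *Tet3* exceeded *Tet1* in every library, by 2.85 and 4.03 log2 units in melan-a and by 0.77 to 1.66 in 4C, with 1.21 to 3.79 in 4C11- and 1.5 to 2.56 in 4C11+.

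*Uhrf1* (ENSMUSG00000001228, chromosome 17, 56303321 to 56323486, plus strand), the reader of hemimethylated DNA that recruits DNMT1, had log2 values of 7.08 and 8.47 in melan-a, 8.68, 7.66 and 7.39 in 4C, 8.18, 8.10 and 8.22 in 4C11-, and 7.73, 7.91 and 8.52 in 4C11+. All lines overlapped, the lowest library was melan-a replicate 2, and no difference was called. Melan-a replicate 2 was also the lowest library in the median of the 20 S phase genes, at 5.61, against 6.85 in melan-a replicate 3 and 6.25 to 7.23 in the derived lines. Per kilobase, *Dnmt1* and *Uhrf1* differed by at most 0.47 log2 units in any library, and their mean difference was 0.00, 0.02, -0.13 and -0.30 in melan-a, 4C, 4C11- and 4C11+.

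*Mbd2* (ENSMUSG00000024513, chromosome 18, 70568189 to 70626131, plus strand), the methyl-CpG binding subunit of NuRD, had log2 values of 6.53 and 6.54 in melan-a, 5.71, 5.58 and 5.50 in 4C, 5.78, 5.26 and 5.43 in 4C11-, and 6.34, 6.12 and 6.31 in 4C11+. The 6 mesenchymal-like libraries were all below the 5 epithelial ones. Its SD within lines was 0.17, smaller than in all but 2.91% of genes. In the mesenchymal-like lines *Mbd2* was lower by a log2 difference of -0.85 ± 0.16 SE (0.553-fold, limma adjusted p = 0.00149), a call kept without any one library. It was lower than in melan-a in 4C (-0.94 ± 0.23, adjusted p = 0.0177) and in 4C11- (-1.05 ± 0.23, adjusted p = 0.0105), and higher in 4C11+ than in 4C11- (0.77 ± 0.21, adjusted p = 0.016) and in 4C (0.66 ± 0.21, adjusted p = 0.0317).

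These pairwise calls of *Mbd2* were close to the threshold. Their adjusted p rose with single libraries left out to at most 0.0638 for 4C and melan-a (without melan-a replicate 2 or 3 or 4C replicate 2 or 3), 0.0524 for 4C11- and melan-a (without 4C11- replicate 2), 0.0778 for 4C11+ and 4C11- (without 4C11- replicate 2 or 4C11+ replicate 1) and 0.117 for 4C11+ and 4C (without 4C replicate 2 or 3 or any library of 4C11+). With the libraries of the compared lines alone, the calls of 4C (0.0548) and of 4C11- (0.119) against melan-a were lost, and with the mean of 4C11+ replicates 1 and 2, that of 4C11+ and 4C (0.084). Without single libraries the log2 differences stayed at -1.0 to -0.89, -1.19 to -0.93, 0.65 to 0.91 and 0.61 to 0.73. With the trends of GC content and length removed, that of 4C11+ and 4C fell to 0.40 (adjusted p = 0.138). In 4C11+ against the mean of the other lines, the log2 difference of *Mbd2* was 0.38 (adjusted p = 0.112) and 0.24 without the trends of GC content and length (adjusted p = 0.275). It was called without 4C11- replicate 1 (0.43, adjusted p = 0.0446) and with arrayWeights (0.43, adjusted p = 0.00645) or gene-by-gene weights (0.47, adjusted p = 0.00585). In the order of the lines, melan-a (6.54 ± 0.01, n = 2) and 4C11+ (6.26 ± 0.12, n = 3) were not called different (adjusted p = 0.447), nor were 4C (5.6 ± 0.11, n = 3) and 4C11- (5.49 ± 0.27, n = 3; adjusted p = 0.872).

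*Mbd3* (ENSMUSG00000035478, chromosome 10, 80392539 to 80399550, minus strand), the alternative NuRD subunit, had log2 values of 5.53 and 5.84 in melan-a, 6.37, 5.96 and 5.43 in 4C, 5.76, 5.85 and 5.58 in 4C11-, and 7.29, 7.35 and 6.82 in 4C11+. The 3 libraries of 4C11+ were above the other 8, which overlapped with one another. Against the mean of the other lines, *Mbd3* was 2.60-fold higher in 4C11+ (log2 difference of 1.38 ± 0.22 SE, limma adjusted p = 0.000664). It was higher in 4C11+ than in 4C11- by 1.42 ± 0.27 (adjusted p = 0.00191), than in 4C by 1.24 ± 0.27 (adjusted p = 0.00431) and than in melan-a by 1.47 ± 0.30 (adjusted p = 0.00724). The last was lost without melan-a replicate 2 (1.32, adjusted p = 0.0575), and the other 3 were kept without any one library and with the mean of 4C11+ replicates 1 and 2.

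The longest transcript of *Mbd3* has a GC content of 62.9%, above 99.0% of the genes used for the GC check. With the trends of GC content and length removed, its difference in 4C11+ was 1.07 (adjusted p = 0.00107), and that of *Dnmt3a*, at 51.9%, was 1.74 (adjusted p = 1.01e-05). The mean of the mesenchymal-like lines was lower than that of the epithelial lines for *Mbd3* as well (-0.60 ± 0.20, adjusted p = 0.0431), but melan-a was not above 4C or 4C11-, and this call was lost in 7 of the 11 fits without 1 library, with an adjusted p of up to 0.129 (without melan-a replicate 3), without the GC and length trends (0.0904), with the mean of 4C11+ replicates 1 and 2 (0.103) and without the mean-variance trend of limma (0.0665).

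*Dnmt3a* and *Mbd3* both rose in 4C11+, and for this reason sequences at some annotated starts of these genes are shown. They are from RefSeq (GRCm38.p6), 250 bases before to 50 after the start. RefSeq promoter sequences matched 8 of the 9 genes. Capitals mark GGGCGG and CCAAT on either strand (CCGCCC and ATTGG on the other), and each line runs 5′ to 3′ on the strand of the gene. *Dnmt3a* has distant starts, and the data used here do not tell which of them gave the reads.
*Mbd3*, chr10:80399482-80399781, minus strand: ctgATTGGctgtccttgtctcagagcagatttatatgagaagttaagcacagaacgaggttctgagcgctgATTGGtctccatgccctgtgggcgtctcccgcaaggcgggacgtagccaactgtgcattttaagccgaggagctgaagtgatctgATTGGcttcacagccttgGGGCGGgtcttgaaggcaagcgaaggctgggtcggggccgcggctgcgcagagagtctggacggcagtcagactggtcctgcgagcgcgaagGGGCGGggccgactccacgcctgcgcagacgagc
*Dnmt3a*, upstream start, chr12:3806730-3807029, plus strand: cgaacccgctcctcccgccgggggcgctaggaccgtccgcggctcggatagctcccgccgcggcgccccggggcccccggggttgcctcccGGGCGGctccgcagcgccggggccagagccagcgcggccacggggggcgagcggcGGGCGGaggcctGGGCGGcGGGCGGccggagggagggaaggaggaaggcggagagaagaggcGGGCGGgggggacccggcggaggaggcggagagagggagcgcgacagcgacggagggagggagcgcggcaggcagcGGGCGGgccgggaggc
*Dnmt3a*, downstream start, chr12:3891494-3891793, plus strand: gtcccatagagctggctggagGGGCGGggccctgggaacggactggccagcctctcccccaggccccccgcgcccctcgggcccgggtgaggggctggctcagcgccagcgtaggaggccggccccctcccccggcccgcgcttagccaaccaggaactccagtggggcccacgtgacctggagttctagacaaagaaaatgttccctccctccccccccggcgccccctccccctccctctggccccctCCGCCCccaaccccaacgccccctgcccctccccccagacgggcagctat

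The *Mbd3* sequence held 22 CG dinucleotides, 2 matches of GGGCGG and 3 of CCAAT. That of the upstream *Dnmt3a* start held 46, 6 and 0, and that of the downstream start 18, 2 and 0. A further annotated *Dnmt3a* start, whose sequence (chr12:3806910-3807209) overlaps the upstream one and is not shown, held 47, 7 and 0. The median over 32851 promoters was 7 CG dinucleotides, 35.7% of them held GGGCGG and 37.4% held CCAAT. Among the promoters of the other genes, *Tet2* had the most CG dinucleotides (57, above those of 99.8% of promoters), and *Dnmt1* had 33 at its most CG-rich start. Of the further motifs searched on both strands, CACGTG was found once, at the downstream *Dnmt3a* start (7.15% of promoters), CATGTG once, at a *Dnmt1* start (14.2%), and TTTNNCGC at starts of *Dnmt1* and *Uhrf1* (5.17%). A match is a description of the letters and not a site of binding.

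Since MBD2 and MBD3 replace each other in NuRD, their RNA levels were also compared per kilobase within each library. *Mbd3* minus *Mbd2* was -0.31 and -0.01 log2 units in melan-a, 1.35, 1.07 and 0.62 in 4C, 0.68, 1.28 and 0.85 in 4C11-, and 1.65, 1.93 and 1.21 in 4C11+. Melan-a was the only line with *Mbd2* at or above *Mbd3*. All 9 libraries of the derived lines were above both melan-a libraries, in 4C and 4C11- with lower *Mbd2* and in 4C11+ with higher *Mbd3*. The corresponding difference of *Dnmt3a* and *Dnmt3b* was 0.47 and -0.79 in melan-a, -0.80, -0.34 and 0.74 in 4C, -0.53, -0.17 and -0.58 in 4C11-, and 0.26, -0.41 and 1.63 in 4C11+, and it overlapped between all lines.

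**Figure D3:**
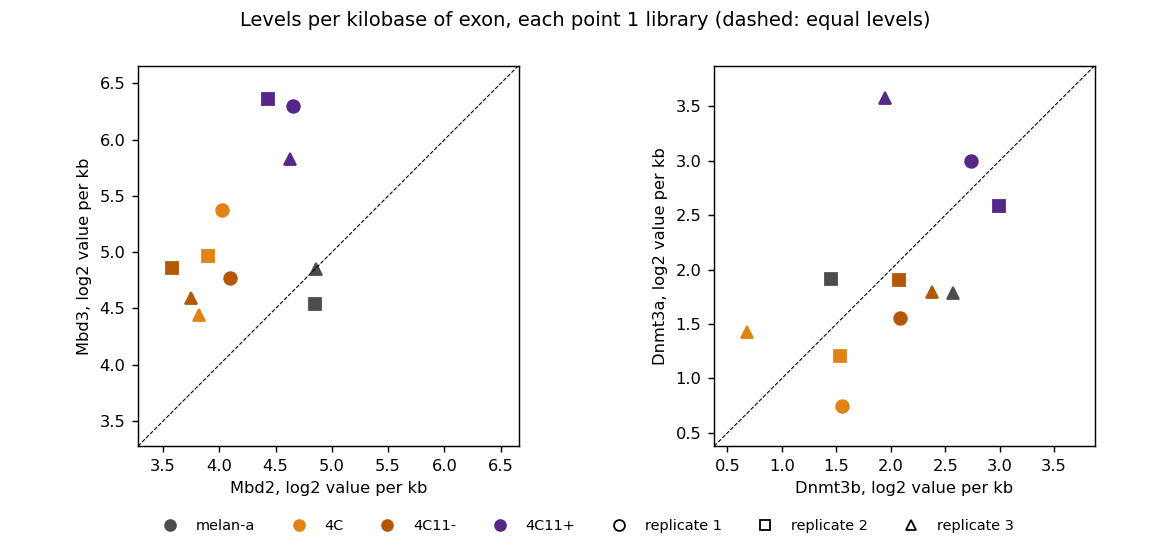
Log2 value per kilobase of exon of *Mbd3* against *Mbd2* (left) and of *Dnmt3a* against *Dnmt3b* (right), with 1 point for each library, colours for lines, symbols for replicates and a dashed line at equal levels. On the left the derived lines lie 0.62 to 1.93 log2 units above the dashed line and the melan-a libraries on it or just below, and on the right the lines overlap around it.

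Along the model, the first step compares pre-malignant 4C with melan-a. Of the 9 genes, 1 was called, *Mbd2* (lower), 11.1% beside 15.2% of all genes. The median log2 difference of the 9 genes was 0.14, and that of all genes was -0.06. The second step, from 4C to the tumor line 4C11-, had no call among the 9 genes with limma, beside 1.67% of all genes, and 2 of the 9 had an unadjusted p under 0.05 (*Dnmt3a* at 0.0457 and *Dnmt3b* at 0.036, both higher in 4C11- in 3 of 3 libraries). The third step, from 4C11- to metastatic 4C11+, had 3 calls, all higher in 4C11+ (*Dnmt3a*, *Mbd2* and *Mbd3*), 33.3% beside 31.1% of all genes. Its median was 0.38, against 0.12 over all genes.

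Between lines that are not consecutive, 1 of the 9 genes was called in 4C11- against melan-a (*Mbd2*, beside 13.6% of all genes), 2 in 4C11+ against melan-a (*Dnmt3a* and *Mbd3*, beside 15.9%) and 4 in 4C11+ against 4C (*Dnmt3a*, *Dnmt3b*, *Mbd2* and *Mbd3*, 44.4% beside 31.7%). The mesenchymal-like against the epithelial lines had 3 calls, all lower (*Dnmt3a*, *Mbd2* and *Mbd3*), beside 29.7% of all genes, 14.3% higher and 15.3% lower. 4C11+ against the mean of the other lines had 2 calls, both higher (*Dnmt3a* and *Mbd3*), 22.2% beside 34.0% of all genes, 18.3% higher and 15.8% lower. These comparisons share lines, and the lower mean of *Dnmt3a* in the mesenchymal-like lines (-1.01 ± 0.21 SE, adjusted p = 0.00336) rests on the same 4C11+ libraries and on the low 4C libraries, while melan-a (5.97 and 5.84) overlapped with 4C11- (5.61, 5.96 and 5.85). 4C was below melan-a without overlap, by a log2 difference of -0.72 that was not called (adjusted p = 0.157).

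**Figure D4:**
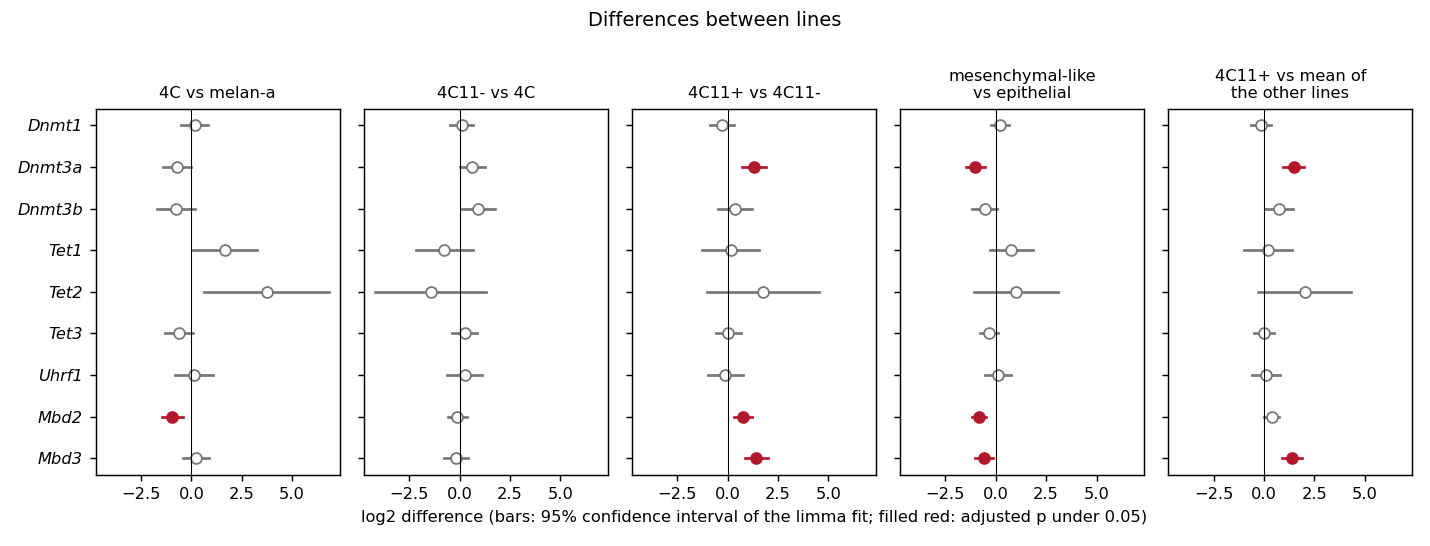
Log2 difference of each gene (horizontal axis) in 5 comparisons, with points for the estimates, bars for 95% confidence intervals of the limma fit and filled red points for an adjusted p under 0.05. The intervals of *Tet2* are the widest (0.63 to 6.82 for 4C and melan-a), and the third step has *Dnmt3a*, *Mbd2* and *Mbd3* above 0.

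The other subunits of NuRD were taken as a list of 13 genes, all with a row. Against the mean of the other lines, 1 was higher and 4 were lower in 4C11+, 38.5% beside 34.0% of all genes, a share near the background. Those that were lower were *Chd3*, a remodelling ATPase (-1.30 ± 0.33 SE, limma adjusted p = 0.00977), *Rbbp7*, a histone-binding subunit (-1.21 ± 0.14, adjusted p = 7.35e-05), *Hdac1*, a deacetylase (-1.05 ± 0.17, adjusted p = 0.000751), and *Mta3*, a scaffold subunit (-0.81 ± 0.23, adjusted p = 0.0185). *Rbbp7* and *Hdac1* were called without any one library, *Chd3* was lost without 4C11+ replicate 1 or 2 (adjusted p of up to 0.0629) and *Mta3* without any library of 4C11+ (up to 0.0693). The count of 5 was 2 without 4C11+ replicate 1 or 2, and 2 with the mean of 4C11+ replicates 1 and 2. The median of the list was -0.22, against 0.08 over all genes. In 4C11+ against melan-a alone, 1 of the 13 was called, *Hdac1* (-1.14 ± 0.23, limma adjusted p = 0.00707), 7.69% beside 15.9% of all genes. *Chd3* was at 7.21 and 5.56 in melan-a replicates 2 and 3, on either side of 4C11+ (5.74 to 6.53). *Mta3* was at 6.01 and 5.14 there, also on either side of 4C11+ (5.20 to 5.52).

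In the mesenchymal-like lines, 3 NuRD subunits were higher and 1 was lower, 30.8% beside 29.7% of all genes and again near the background. They were *Chd3* (1.62 ± 0.29 SE), *Rbbp7* (1.44 ± 0.13), *Mta3* (1.01 ± 0.21) and *Hdac2* (-0.67 ± 0.22), with limma adjusted p of 0.00136, 5.52e-06, 0.00328 and 0.0399. The first 3 were called without any one library, and *Hdac2* was lost in 8 of the 11 fits without 1 library (adjusted p of up to 0.116). *Rbbp7* had log2 values of 9.55, 9.73 and 9.39 in 4C and 9.24, 9.22 and 9.37 in 4C11-, above 7.98 and 8.33 in melan-a and 7.80, 7.84 and 7.72 in 4C11+, without overlap. In the steps of the model, 4 of the 13 were called in 4C against melan-a (3 higher; 30.8% beside 15.2% of all genes). This count was 1 or 2 without 4C replicate 2 or 3, 4C11- replicate 2 or any library of 4C11+. It was 1 without the mean-variance trend of limma, with the compared lines alone and with gene-by-gene weights. With the mean of 4C11+ replicates 1 and 2 it was also 1. Without melan-a replicate 3, *Chd3* and *Mta3* differed by 0.7 and 0.6, against 1.52 and 1.04 with it. In 4C11- against 4C, 1 was called (7.69% beside 1.67%; *Rbbp4*, higher by 0.90, lost in 8 of the 11 fits without 1 library). In 4C11+ against 4C11-, 5 were called (all lower; 38.5% beside 31.1%), a count of 3 without 4C11- replicate 1 or 4C11+ replicate 2 or 3.

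**Figure D5:**
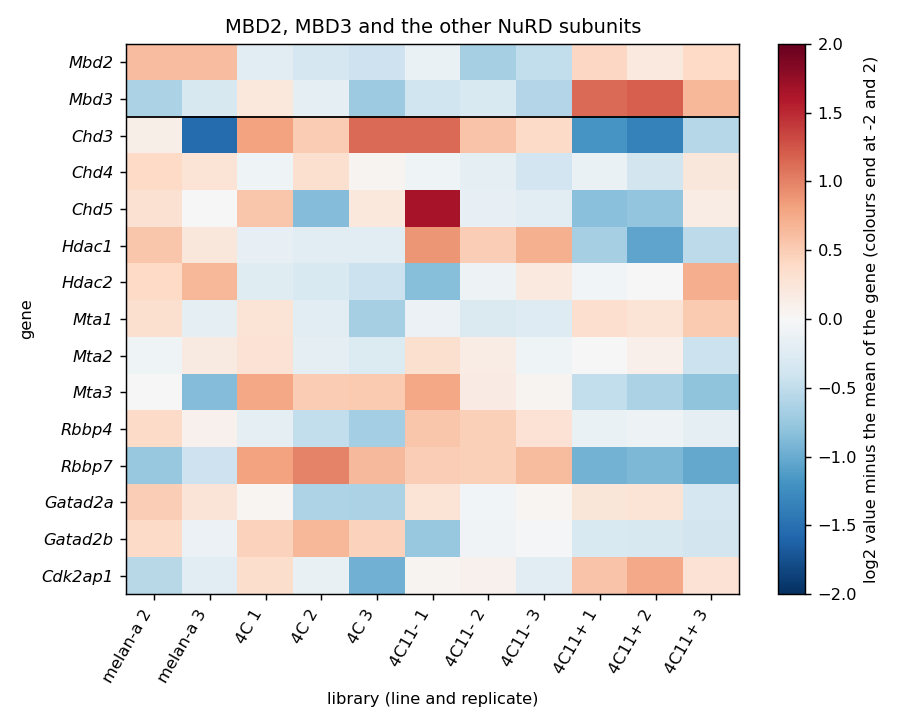
Log2 value minus the mean of the gene (colour, ending at -2 and 2) of *Mbd2*, *Mbd3* and the 13 other NuRD subunits (rows) in the 11 libraries (columns). *Rbbp7* is high in the 6 libraries of 4C and 4C11-, where *Mbd2* is low, and *Mbd3* is high in the 3 libraries of 4C11+, where *Rbbp7* and *Hdac1* are low.

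Partners of the DNA methyltransferases were taken as a list of 11 genes, of which 9 had a row. None was called with limma in 4C against melan-a or in 4C11- against 4C, and 0 had an unadjusted p under 0.05 in either. Without melan-a replicate 2 or 3, 1 was called in 4C against melan-a. Against the mean of the other lines, 2 were higher and 2 were lower in 4C11+ (44.4% of the 9, beside 34.0% of all genes), a count of 1 in all without 4C11+ replicate 1 or 2 or with the mean of 4C11+ replicates 1 and 2. In 4C11+ against 4C11-, 1 was higher and 2 were lower (33.3%, beside 31.1% of all genes). *Uhrf2*, the paralogue of *Uhrf1*, had log2 values of 4.44, 4.66 and 5.74 in 4C11+, against 5.90 to 6.98 in the other libraries, and its difference of -1.50 ± 0.28 SE (adjusted p = 0.00191) was called without any one library. In the mesenchymal-like lines, 1 was higher and 2 were lower (33.3%, beside 29.7% of all genes). *Cdca7*, the activator of the remodeller HELLS, was higher there by 1.29 ± 0.31 (adjusted p = 0.00833). Melan-a replicate 3 (7.0) lay among the mesenchymal-like libraries (6.25 to 7.76) and replicate 2 (5.24) below them, and the difference was 0.85 without replicate 2 and 1.73 without replicate 3. *Trdmt1*, a tRNA methyltransferase of the same enzyme family, was lower there by -1.31 ± 0.31 (adjusted p = 0.00788), and both were called without any one library. *Zbtb24*, a zinc finger protein, was lower by -0.68 ± 0.21 (adjusted p = 0.0315), a call lost in 8 of the 11 fits without 1 library (up to 0.0898). The medians of the list were 0.25 in 4C11+ and 0.11 in the mesenchymal-like lines, against 0.08 and -0.09 over all genes.

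Of 12 partners of demethylation, 11 had a row. *Gadd45g*, a stress-response gene that has been linked to active demethylation, was high in both mesenchymal-like lines. Its log2 values were 6.04, 6.83 and 6.94 in 4C and 7.14, 6.25 and 6.10 in 4C11-, against 3.73 and 3.25 in melan-a and 3.13, 3.13 and 2.14 in 4C11+, without overlap. The mesenchymal-like lines were higher by 3.41 ± 0.29 SE (limma adjusted p = 3.45e-06), called without any one library. *Tdg*, the glycosylase that removes oxidized methylcytosine, was higher in 4C11+ than the mean of the other lines by 1.34 ± 0.26 (adjusted p = 0.00229), with values of 6.98, 7.02 and 6.61 against 4.85 to 6.08. In all, 3 of the 11 were called in 4C11+ against the other lines (1 higher; 5 without 4C11- replicate 1) and 3 in the mesenchymal-like lines (2 higher; 1 without 4C11- replicate 2 or 4C11+ replicate 1 or 2), 27.3% in each beside 34.0% and 29.7% of all genes, with medians of -0.58 and 0.02. With the mean of 4C11+ replicates 1 and 2, 1 was called in the mesenchymal-like lines, *Gadd45g* (the adjusted p of *Tdg* and *Apex1* was then 0.0699 and 0.0648). In the steps, 1 was called in 4C against melan-a (*Gadd45g*, 3.12 ± 0.43, adjusted p = 0.000395; 9.09% beside 15.2% of all genes), none with limma in 4C11- against 4C (0 at an unadjusted p under 0.05) and 3 in 4C11+ against 4C11- (1 higher; 27.3% beside 31.1%), a count of 1 without 4C11+ replicate 1 or 2.

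Of 10 other proteins that bind methyl-CpG or CpG, all had a row, and 3 were lower in 4C11+ than the mean of the other lines, 30.0% beside 34.0% of all genes. The count was 0 without 4C11+ replicate 2, and 1 without 4C11+ replicate 1 or with the mean of these 2. They were *Zbtb4* (-1.77 ± 0.46 SE, limma adjusted p = 0.0118), *Mbd5* (-1.73 ± 0.59, adjusted p = 0.0411) and *Setdb1*, a histone methyltransferase with an MBD-like domain (-0.65 ± 0.19, adjusted p = 0.0187). *Zbtb4* was lost without 4C11+ replicate 2 (adjusted p = 0.0693), *Setdb1* without 4C11+ replicate 1 (0.105) or 2 (0.119), and *Mbd5* in 8 of the 11 fits without 1 library, libraries of every line among them (up to 0.209), and without the mean-variance trend of limma (0.0607). The median of the list was -0.20 in this comparison, and 1 gene, *Zbtb4*, was called in the mesenchymal-like lines (10% beside 29.7% of all genes; higher by 1.33, lost without melan-a replicate 3 at an adjusted p of 0.139, and in 4 other fits without 1 library). None was called with limma in 4C against melan-a (2 at an unadjusted p under 0.05, and 2 called without 4C11- replicate 1) or in 4C11- against 4C (1 at an unadjusted p under 0.05), and 2 were lower in 4C11+ than in 4C11- (20.0% beside 31.1% of all genes), none of them called without 4C11+ replicate 2 (adjusted p = 0.0505 for *Zbtb4* and 0.135 for *Setdb1*).

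As *Dnmt1* and *Uhrf1* are expressed with replication, the S phase and mitosis genes were set beside them. Of 20 S phase genes, 4 were higher in the mesenchymal-like than in the epithelial lines (20.0%, beside 29.7% of all genes), a count of 11 without melan-a replicate 3 and of 1 or 2 without melan-a replicate 2, 4C replicate 1 or 2, 4C11- replicate 2 or 3 or 4C11+ replicate 1 or 2. Their median log2 difference was 0.47, against -0.09 over all genes. In 4C11+ against the other lines, 1 was higher and 1 was lower (10%, beside 34.0% of all genes), and neither was called without 4C11+ replicate 1 or 2, while 5 and 4 were called without melan-a replicates 2 and 3. In the steps, 1 was higher in 4C than in melan-a (*Mcm6*, lost without melan-a replicate 2 at an adjusted p of 0.0635, with 6 genes called without melan-a replicate 3; 5.0% beside 15.2% of all genes), none was called with limma in 4C11- against 4C (2 at an unadjusted p under 0.05) and 2 were lower in 4C11+ than in 4C11- (10% beside 31.1% of all genes), a count of 0 to 5 without single libraries. Of 14 mitosis genes, 1 was higher in 4C11+ against the other lines (*Ccnb2*, by 0.97 ± 0.19 SE, limma adjusted p = 0.00272; 7.14% beside 34.0% of all genes) and 2 were called in the mesenchymal-like lines (14.3% beside 29.7%), 1 in each direction, neither without 4C replicate 2 or 3, 4C11- replicate 2 or 3 or 4C11+ replicate 1 or 2. None was called with limma in 4C against melan-a or in 4C11- against 4C, with 1 in each at an unadjusted p under 0.05. In 4C11+ against 4C11-, 1 was higher (*Ccnb2*, by 0.8, limma adjusted p = 0.0222; 7.14% beside 31.1% of all genes). This count was 0 without 4C11- replicate 2 or with the mean of 4C11+ replicates 1 and 2, and 2 without 4C replicate 3. The call of *Ccnb2* was lost without 4C11- replicate 2 (limma adjusted p = 0.071), 4C11+ replicate 1 (0.076) or 4C11+ replicate 3 (0.0572). It was also lost with the mean of 4C11+ replicates 1 and 2 (0.0607) and without the GC and length trends (0.0572).

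Germline genes that promoter methylation is known to hold silent were the last list. Of 16, only *Tex19.1* and *Brdt* had a row, and the other 14 were not analysed here. *Tex19.1* had log2 values of 1.96, 0.84 and 0.63 in 4C and 2.06, 1.65 and 0.85 in 4C11-, against -3.15 and -1.42 in melan-a and -0.70, -0.70 and -2.58 in 4C11+. It was above 0 in the 6 libraries of 4C and 4C11- alone, and at the lowest value of the library in melan-a replicate 2 and 4C11+ replicate 3. Since genes of low count had been dropped, it had a row only through the lines where it was high, and its difference is given with no test. *Brdt* was lower in 4C11+ than in 4C11- by -1.68 ± 0.40 (adjusted p = 0.00811).

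The genes most like the 3 that passed the F test were found by the root-mean-square difference of centred log2 values over the 11 libraries. They were *Sf3a2* (0.11) and *Uxt* (0.15) for *Mbd3*, against a median of 0.91 over all genes, *Ogg1* (0.14) and *Rpl35a* (0.16) for *Mbd2*, against 0.75, and *Rbks* (0.25) and *Rnf169* (0.28) for *Dnmt3a*, against 0.98. *Ogg1*, a base excision glycosylase, had line means of 5.04, 4.29, 4.19 and 4.76 in melan-a, 4C, 4C11- and 4C11+.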

How the data were processed

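Total RNA of 4 murine lines had been sequenced by the authors from stranded, rRNA-depleted libraries, with reads trimmed by Trimmomatic, aligned to GRCm38 by STAR and counted over genes by Rsubread, and genes without 1 CPM in at least 4 libraries dropped. The authors deposited log2 values on a CPM scale, made with voom of limma, and these share 1 highest value (13.69) and a median of 4.57 or 4.58 in all 11 libraries. Melan-a replicate 1 was not analysed here. Lines and replicate numbers were taken per the labels.

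Gene IDs matched a symbol in GENCODE M21 (GRCm38) for 14248 of 14272 genes. Means of the 4 lines were fitted on all 11 libraries and all genes with limma 3.58.1 (lmFit, contrasts.fit, and eBayes with a mean-variance trend) in R 4.3.3, with no filter, no pseudocount and Benjamini-Hochberg adjustment over all genes. All tests were two-sided, and the F test was over the 3 differences between lines. The code was first tested on simulated data, in which 200 genes were changed by known amounts. Tables and figures were made with Python 3.11.15, NumPy 2.4.6, pandas 2.3.3, SciPy 1.17.1 and matplotlib 3.10.9. GC content was that of the longest transcript, and exonic length was the union of annotated exons. Reads of low genes came from the order of the distinct values in each library and approximate depth from their size, and depth sets how far low values such as those of *Tet2* and *Dnmt3b* can be read. Other copies by symbol are the pseudogene *Dnmt3a-ps1* and the paralogues *Mbd3l1* and *Mbd3l2*, and how reads were shared with them is not given in the sources used here.

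All 9 genes were given in every library. Of each further list, up to 4 genes past the threshold with the largest absolute log2 difference were selected in a comparison. Only some of the genes so selected are named here. For each gene past the F test, the 2 genes of most similar profile were named. Single genes singled out beyond these rules were chosen after their values were seen. The members and lists were chosen with earlier results of these data known. Lists were partners of the DNA methyltransferases, demethylation partners, other methyl-CpG and CpG binding proteins, NuRD subunits, methyl donor and cofactor metabolism, S phase genes, mitosis genes and germline genes, with markers of 5 cell types. Alternatives were a further quantile normalization, centring on medians, a minimum mean log2 value of 1, eBayes without trend or robust, library weights, the replicate number as a block, the libraries of the compared lines alone, and leaving out each library. After seeing the data, 3 were added, namely removal of the trends with GC content and length (lowess, span 0.3), the mean of 4C11+ replicates 1 and 2, and weights estimated gene by gene.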

Additional observations from a re-analysis of the deposited data

How the results depend on the processing

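Of 1755 values of the 9 genes under alternatives, 1670 stayed on their side of the threshold, 37 were no longer called, 48 were newly called and 0 called values changed sign. Of 1297 values past no threshold, 65 changed sign. Counts of called genes among the 9, with the lowest and highest without 1 library, were 1 in 4C against melan-a (0 to 2; 2 with arrayWeights, with the replicate block and without GC and length trends), 0 in 4C11- against 4C (0 to 0; 1 with gene-by-gene weights), 3 in 4C11+ against 4C11- (2 to 4; 5 with gene-by-gene weights), 1 in 4C11- against melan-a (0 to 2; 0 with the compared lines alone), 2 in 4C11+ against melan-a (1 to 2; 1 with the compared lines alone, 4 without GC and length trends), 4 in 4C11+ against 4C (2 to 4; 2 with the mean of 4C11+ replicates 1 and 2), 3 in the mesenchymal-like lines (2 to 4), 2 in 4C11+ against the other lines (2 to 3; 6 with either weighting) and 3 in the F test (3 to 5; 6 with either weighting). The cause was not tested. The default arrayWeights estimate stopped before convergence, with weights of 3.72e-06 for 4C11- replicate 2 and 30.2 for 4C11+ replicate 1, so weights were also estimated gene by gene (0.219 to 4.71). Over all genes, counts moved in 4C11- against 4C from 238 to 125 (minimum mean), 143 (compared lines alone), 437 (arrayWeights), 439 (without GC and length trends, with 64.5% higher against 75.6%) and 2501 (gene-by-gene weights), with 93 to 320 without 1 library. They moved in 4C11+ against 4C11- from 4433 to 9238 (gene-by-gene weights), in 4C11- against melan-a from 1940 to 1182 (arrayWeights) and 843 (compared lines alone), in 4C11+ against melan-a from 2270 to 1446 (compared lines alone) and 1134 (mean of replicates), with 1089 to 2864 without 1 library, in 4C11+ against 4C from 4528 to 10651 and 9458 (both weightings), in 4C11+ against the other lines from 4856 to 8904 and 8720 (both weightings) and 3041 (mean of replicates), with 3001 to 5718 without 1 library, and in the F test from 5158 to 10449 and 10339 (both weightings), with 3417 to 5889 without 1 library. By the rule given above, 78 differences were selected for the other lists in 5 comparisons, and not all are named here. Of these, 36 stayed past the threshold without each library. In 4C11+ against the other lines, several list counts rose with arrayWeights and with gene-by-gene weights. S phase genes went from 2 to 8 and 10, and mitosis genes from 1 to 7 and 7. Demethylation partners went from 3 to 6 and 6, and other CpG binding proteins from 3 to 8 and 5. The count of NuRD subunits moved by less than 1.5 times.

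Same-numbered libraries of different lines correlated at -0.23 to 0.39 in 15 pairs, 8 of them over 0.1, and 1 of 11 libraries was closest to its own number in every other line. The 3 pairs of replicates 1 were all over 0.1 (0.15 to 0.24), but not every pair was, so the numbers were not taken as pairing the libraries. With the replicate block, *Tet1* was called in 4C against melan-a (2.05, limma adjusted p = 0.0418), and no other call among the 9 genes changed. Depth limits how far genes of low count can be read. For *Tet2*, melan-a replicate 3 had 0 reads and replicate 2 had 57. From the step at 40 reads, the depth of replicates 3 and 2 was 5.82 and 3.5 M reads, and from the lowest value 3.0 and 4.44. The part of depth in the 0 reads was not tested.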

Other observations

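Genes of methyl donor and TET cofactor metabolism were a further list of 19, of which 18 had a row. *Ahcy*, the hydrolase that clears S-adenosylhomocysteine after methyl transfer, had log2 values of 9.25, 9.12 and 8.51 in 4C and 9.16, 8.98 and 8.84 in 4C11-, against 7.64 and 7.64 in melan-a and 7.68, 7.83 and 7.66 in 4C11+, without overlap. It was higher in the mesenchymal-like lines by 1.30 ± 0.16 SE (limma adjusted p = 6.67e-05). *Mtr*, methionine synthase, was also higher there (0.86 ± 0.19, adjusted p = 0.0053), while its reductase *Mtrr* had 5.20, 5.39 and 4.89 in 4C11+, against 3.58 to 4.36 in the other libraries. *Idh3a*, a subunit of the mitochondrial enzyme that makes the TET cofactor 2-oxoglutarate, and *Ahcyl2*, a relative of *Ahcy*, were higher in 4C11+ than the mean of the other lines by 1.13 ± 0.22 (adjusted p = 0.00218) and 1.19 ± 0.24 (adjusted p = 0.00255). Both were also lower in the mesenchymal-like lines (-1.07 ± 0.20 and -0.95 ± 0.21, limma adjusted p = 0.00148 and 0.00533). These calls and that of *Mtrr* in 4C11+ (1.16 ± 0.22, adjusted p = 0.00205) were kept without any one library. Neither *Idh3a* nor *Ahcyl2* was called in 4C11+ against melan-a. Melan-a replicates 2 and 3 had 6.78 and 7.61 for *Idh3a*, against 7.65 to 8.03 in 4C11+. For *Ahcyl2* they had 4.88 and 5.84, against 6.05 to 6.38.

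In all, 7 of the 18 were called in the mesenchymal-like lines (3 higher) and 7 in 4C11+ against the other lines (5 higher; 11 without melan-a replicate 3), beside 29.7% and 34.0% of all genes, with medians of -0.27 and 0.31. In the steps, 4 were called in 4C against melan-a (2 higher; 22.2% beside 15.2% of all genes). This count was 1 with the libraries of the compared lines alone. None was called with limma in 4C11- against 4C (2 at an unadjusted p under 0.05). In 4C11+ against 4C11-, 8 were called (5 higher; 44.4% beside 31.1%), a count of 4 or 5 without 4C11- replicate 2 or 3 or 4C11+ replicate 2. That count was 3 without 4C11+ replicate 1 or with the mean of 4C11+ replicates 1 and 2.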
